A study of Capra hircus with 6 samples.

Results

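The miR-15/16 family comprises miR-15a, miR-15b, miR-16 (listed in goat as miR-16a and miR-16b), miR-195, miR-497, miR-424 and miR-503. Its members were picked by name: of the 1120 distinct names in the deposited list of expressed miRNAs, the 19 whose miRNA, without species prefix, arm, copy number and variant suffix, was one of these were kept. Small RNA of Haimen goat longissimus dorsi, a back muscle, was sequenced in 3 libraries from lambs at 1 day of age and in 3 libraries from fetuses at day 75 of pregnancy. No treatment, genotype or sex is given in the labels, and all libraries share the breed and the muscle. Whether the libraries of a stage stem from different animals is not given either, so that the p-values here speak of differences among libraries, possibly of technical origin. Levels are given as RPM, reads per 1000000 listed miRNA reads with library sizes scaled by the trimmed mean of M values (TMM), and fold changes are lamb over fetus on the log2 scale.

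A miRNA hairpin is cut into a 5p and a 3p strand, and the strand loaded into an Argonaute protein pairs with messenger RNAs mainly through its seed, bases 2 to 8. The 5p strands of this family share the seed start AGCAGC. They are known in human and mouse to repress cyclins, cyclin-dependent kinases and other drivers of the cell cycle, as well as the survival factor BCL2. The genes lie in pairs that are transcribed together. In the mouse, miR-195 is tied to the exit of heart muscle cells from the cell cycle after birth, miR-195 and miR-497 to the quiescence of muscle stem cells, and miR-424 (miR-322 in rodents) and miR-503 to cell cycle exit of differentiating myoblasts.

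Gene order was looked up by the gene coordinates of RefSeq's goat annotation (ARS1.2), which are not printed here. There, MIR15A lay next to MIR16A, MIR15B next to MIR16B inside the chromosome condensation gene SMC4, and MIR195 next to MIR497. MIR424 had MIR542 as its nearest annotated miRNA gene. No gene named MIR503 was matched there.

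The listed sequences of the 5p strands show what joins and separates the members. Capitals mark bases 2 to 8 counted from the 5′ end, and sequences are written as DNA, as deposited. The prefixes are chi for goat, bta for cattle, cgr for Chinese hamster, dno for armadillo, oga for galago, ssc for pig and mml for rhesus macaque.
chi-miR-15a-5p_R-1: tAGCAGCAcataatggtttgtg
chi-miR-15b-5p: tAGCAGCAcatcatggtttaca
chi-miR-16a-5p: tAGCAGCAcgtaaatattggag
chi-miR-16b-5p_R+1: tAGCAGCAcgtaaatattggggt
chi-miR-195-5p_R+2: tAGCAGCAcagaaatgttggta
chi-miR-497-5p_L+1R-1: cAGCAGCAcactgtggtttgta
chi-miR-424-5p: cAGCAGCAattcatgttttga
bta-miR-503-5p_R+3: tAGCAGCGggaacagtactgcag
dno-miR-503-5p_R+2: tAGCAGCGggaacagtactgcagaa
cgr-miR-15b-5p_L+2: aATAGCAGcacatcatggtttaca

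Of the 19 names, 9 had AGCAGC at bases 2 to 7, and no name outside the family did. The seed was AGCAGCA in 7 of them and AGCAGCG in both 5p names of miR-503. The hamster-type miR-15b-5p starts 2 bases further upstream, which shifts its seed to ATAGCAG. Goat miR-497-5p carries 1 extra base at its 5′ end relative to the registry entry, and with it the family seed stands at bases 2 to 8. The 16a and 16b strands share their first 20 bases. They differ by A21G (16a base, position from the 5′ end, 16b base) and by 1 further base at the 3′ end of 16b, so the division of reads between these near-identical names is uncertain. The armadillo-type miR-503-5p equals the cattle-type one plus 2 bases at the 3′ end.

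The 3p strands and new arms that carry results do not share that seed, and are shown to mark them off from the 5p strands.
chi-miR-424-3p: cAAAACGTgaggcgctgctat
bta-miR-503-3p_R+1: gGAGTATTgtttctgctgcccggt
chi-miR-195-3p_R+1: cCAATATTggctgtgctgctcc
oga-mir-195-p3: cCAATATTtgctgtgctgctcc
chi-miR-15b-3p: cGAATCATtatttgctgctct
ssc-mir-503-p5_1ss2CA: cAGCACTCagccgtgccc

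The miR-195 3p names differ by G9T (goat-type base, position from the 5′ end, galago-type base), and no other seed was shared between names without AGCAGC. In all, 11 names came from the 5′ arm and 8 from the 3′ arm, at lengths of 18 to 25 nt. The authors classed 7 as identical with the miRBase registry, 10 as differing and 2 as new arms. Of the 11 goat-prefixed names, 6 were identical and 5 differed. Among the 10 differing names, 6 were only longer at the 3′ end, 1 was only shorter there, 2 had a changed 5′ end and 1 a substitution (G15A in the macaque-type miR-497-3p). The identical names held 76.5, 79.2 and 79.9% of the family's reads in lambs and 64.0, 62.8 and 67.5% in fetuses. None of the 19 shared its sequence with another listed name.

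Library sizes ran from 6096009 to 9471852 listed reads in lambs and from 8506742 to 13756954 in fetuses. Of 1119 names with counts, 714 averaged at least 10 reads over the 6 libraries and were tested with edgeR's quasi-likelihood test. At an adjusted p under 0.05, 116 (16.2%) were higher and 189 (26.5%) lower in lambs, 42.7% in all, with a median log2 fold change of -0.12. Scaled to library totals, the median was -0.52 and only 20.9% of the calls were higher in lambs, against 38.0% with TMM. The 7 skeletal muscle miRNAs set as markers were all listed, and their summed level ran from 255117 to 351398 RPM in lambs and from 62319 to 73253 in fetuses. The largest part of it was miR-133a-3p, with 173672 to 237277 RPM in lambs and 28965 to 36259 in fetuses. Of the 11 tested marker names, 7 were higher in lambs and 3 did not pass. The lower one was miR-499-5p (log2 fold change -0.88, edgeR adjusted p = 0.0263). The part of these markers in the results below was not tested.

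The family's names moved in both directions. Of its 14 tested names, 4 were higher in lambs and 8 lower. That is 12 of 14 beside 42.7% of all tested names, but some of these names passed the minimum through their fetal reads alone and had to differ. The galago-type miR-195-3p, with 20, 9 and 0 reads in fetuses, passed it mainly through its lamb reads, so its call adds little. The stages did not overlap for 13 of the 14, beside 56.2% of all tested names. The 4 higher names were miR-16a-5p, miR-497-5p and both miR-195 3p names. The 8 lower ones were miR-16b-5p, both arms of miR-15b, miR-424-3p and 4 names of miR-503. The goat miR-15a-5p and miR-424-5p did not pass the test. The median log2 fold change of the 14 was -0.88, also with the 2 names that had no lamb reads set to the folds given below. In a whole muscle, a change in the number of cells of a type and in the RNA per cell cannot be told apart.

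**Figure D1:**
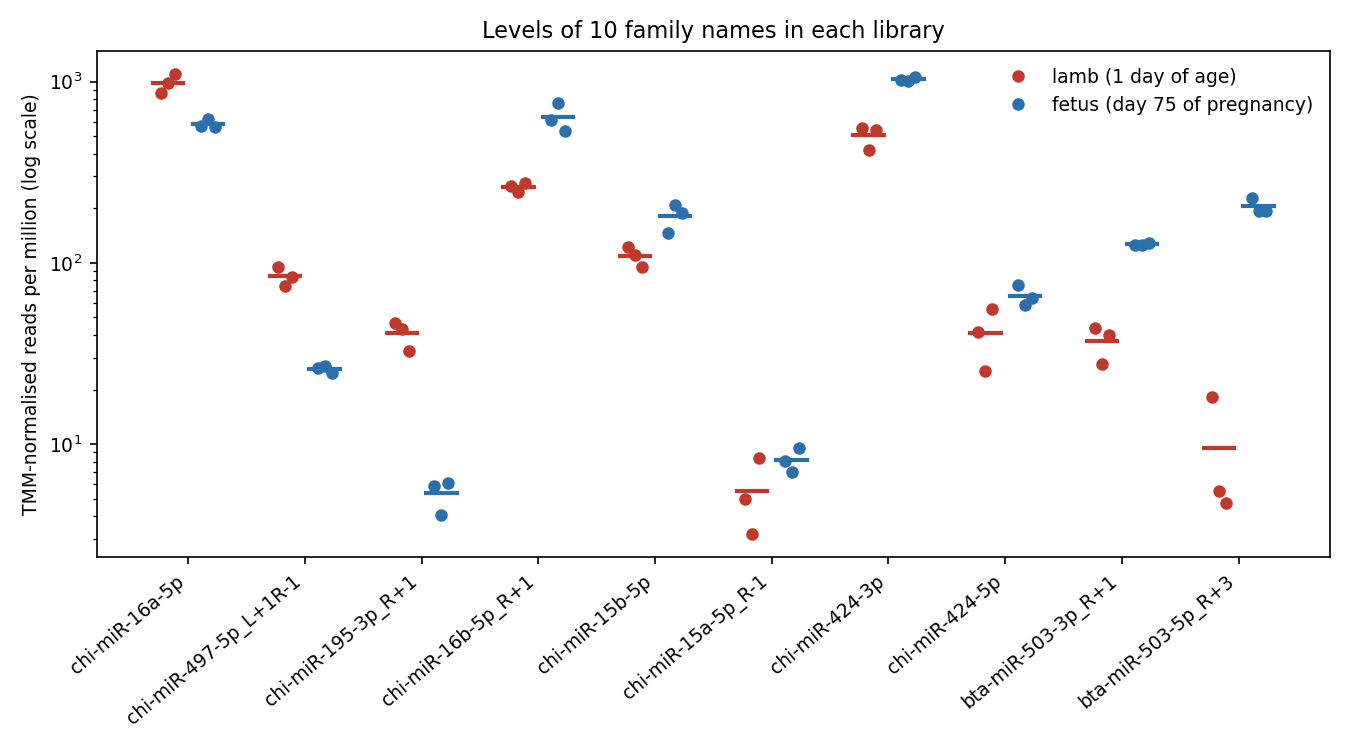
Levels of 10 family names in each library, in TMM-normalised RPM on a log scale; dots are libraries and bars are means of 3. MiR-16a-5p, miR-497-5p and miR-195-3p have all lamb dots above all fetal dots, whereas for miR-16b-5p, miR-424-3p and both miR-503 arms the lamb dots lie below.

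The most abundant family name in lambs was miR-16a-5p, whose human counterpart is known as a suppressor of B cell leukaemia together with miR-15a. It had 864, 988 and 1104 RPM in the lamb libraries, against 566, 619 and 560 in the fetal libraries. The stages did not overlap. It was 1.69-fold higher in lambs (log2 fold change 0.76, SE 0.15, edgeR adjusted p = 0.00753). Scaled to library totals, the log2 fold change was 0.37 and did not pass (edgeR adjusted p = 0.0837), with the median of all names at -0.52. Its partner miR-15a-5p was scarce, with 4.98, 3.18 and 8.36 RPM in lambs and 8.04, 7.05 and 9.56 in fetuses. The stages overlapped, and the log2 fold change of -0.57 (SE 0.41) was not significant (edgeR adjusted p = 0.286). It was -0.30 without lamb 2 (edgeR adjusted p = 0.517) and -1.0 without lamb 3 (edgeR adjusted p = 0.0697). The hamster-type miR-16-3p was seen with 5 reads in a single library, fetus 1.

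Of the pair encoded in SMC4, the goat 5p names were lower in lambs. The division of reads between miR-16b-5p and the near-identical miR-16a-5p is uncertain, however. MiR-16b-5p had 266, 247 and 277 RPM in lambs and 613, 760 and 531 in fetuses. The groups were far apart, and the strand was 2.41-fold lower in lambs (log2 fold change -1.27, SE 0.18, edgeR adjusted p = 0.00239). MiR-15b-5p had 122, 110 and 94.8 RPM in lambs, against 146, 208 and 189 in fetuses. These values did not overlap either, but the difference was smaller and its call fragile, with a log2 fold change of -0.73 (SE 0.21, edgeR adjusted p = 0.0317). The call was lost without fetus 2, fetus 3 or any single lamb library (edgeR adjusted p from 0.0505 to 0.108), without the filter on low counts (edgeR adjusted p = 0.0567) and with the deposited scaling (edgeR adjusted p = 0.0734). The passenger strand miR-15b-3p was detected in 1 lamb library with 6 reads, and in the fetal libraries with 70, 46 and 62 reads. It reached the minimum of 10 reads on average through its fetal reads, so that its call (log2 fold change -3.97, SE 1.18, edgeR adjusted p = 0.0338) adds little to these counts. Without any 1 fetal library or without lamb 1 it did not pass (edgeR adjusted p from 0.073 to 0.101), and without lamb 2, which holds all its lamb reads, the fitted value was -8.71. Goat miR-16b-3p had no reads in lambs and 17, 5 and 5 in fetuses, below the minimum for testing. Over the 3 lamb libraries a floor of 3 counts is 0.139 RPM, against which miR-16b-3p was 5.3-fold lower in lambs. The smallest count above 0 of any family name in a library was 5. Whether lower counts were listed as 0 is not known, so this fold is no firm bound. The hamster-type miR-15b-5p was seen with 7 reads in fetus 3 alone.

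Because miR-16a-5p and miR-16b-5p differ by so little, their reads were also summed, a step chosen after their values were seen. Summed, they had 1130, 1235 and 1380 RPM in lambs and 1180, 1379 and 1091 in fetuses. The stages overlapped, and the log2 fold change of the sum was 0.03 (SE 0.15, edgeR adjusted p = 0.872). The share of 16a in this sum was 76.44, 79.98 and 79.94% in lambs, against 47.98, 44.89 and 51.33% in fetuses. The total thus gave no detectable difference with TMM while its division between the names did not overlap (two-sided exact permutation p = 0.10, the smallest that 3 against 3 libraries allow). The sum was not fitted with library totals, under which both names had lower log2 fold changes (0.37 for 16a and -1.66 for 16b). In 3 libraries, the deposited reads of these names were not whole numbers, as when reads are divided between names. The part of such sharing in this division was not tested.

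MiR-195 and miR-497, which are encoded side by side, were both higher in lambs. MiR-497-5p had 95.4, 74.6 and 83.7 RPM in lambs and 26.3, 27.1 and 24.6 in fetuses. The fetal libraries were nearly equal, and the lowest lamb library lay well above them (log2 fold change 1.70, SE 0.20, edgeR adjusted p = 0.00111). Goat miR-195-3p had 46.7, 43.1 and 32.8 RPM in lambs and 5.86, 4.06 and 6.13 in fetuses. It was 7.63-fold higher in lambs, the largest rise among goat-prefixed family names (log2 fold change 2.93, SE 0.29, edgeR adjusted p = 0.00057). The galago-type 3p name had 72, 17 and 45 reads in lambs and 20, 9 and 0 in fetuses. Its log2 fold change of 3.02 (SE 0.98, edgeR adjusted p = 0.0453) did not pass without fetus 1, fetus 2, lamb 1 or lamb 3 (edgeR adjusted p from 0.0578 to 0.136). It did not pass without the filter (edgeR adjusted p = 0.0508) or with library totals (edgeR adjusted p = 0.0682).

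The 5p strand of miR-195, the one with the family seed, was listed as a goat name with no reads in lambs and 6 in fetus 1 alone. Registry sequences were not used here, so the listed one was not set beside its entry, and this count is that of the listed sequence only. All listed lamb reads of miR-195 and nearly all fetal ones were from 3p names. The macaque-type miR-497-3p was also rare, with 5 reads in lamb 2 and 17 in fetus 1.

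All names of miR-503 and the 3p strand of miR-424 were lower in lambs. MiR-424-3p, the most abundant family name in fetuses, had 551, 421 and 540 RPM in lambs and 1022, 1012 and 1058 in fetuses. It was lower in lambs by a log2 fold change of -1.03 (SE 0.16, edgeR adjusted p = 0.00298), and the groups did not overlap. MiR-424-5p, the strand with the family seed, had 41.7, 25.4 and 55.6 RPM in lambs against 75.2, 58.5 and 63.8 in fetuses. The stages did not overlap here either, but the lamb libraries spread widely, and the log2 fold change of -0.68 (SE 0.32) did not pass (edgeR adjusted p = 0.13). Without lamb 3 it was -0.97 (edgeR adjusted p = 0.0404) and with library totals -1.09 (edgeR adjusted p = 0.0218), whereas without lamb 2 it was -0.43 (edgeR adjusted p = 0.201).

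The sharpest fall among family names present in every library was that of miR-503-5p. It had 18.2, 5.48 and 4.74 RPM in lambs and 227, 193 and 194 in fetuses. In reads, that is 143, 31 and 38 in lambs and 3525, 2187 and 1869 in fetuses. It was 21.5-fold lower in lambs (log2 fold change -4.42, SE 0.59, edgeR adjusted p = 0.00173). Lamb 1 stood above the other lambs, and without it the log2 fold change was -5.33 (edgeR adjusted p = 0.000811). The other strand, miR-503-3p, had 43.6, 27.7 and 40.2 RPM in lambs and 125, 126 and 128 in fetuses. It fell by 1.77 on the log2 scale (SE 0.23, edgeR adjusted p = 0.00173).

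Both remaining miR-503 names were absent from every lamb library. The pig-type new 5′ arm had 124, 88 and 72 reads in fetuses. Against the floor of 3 counts over the 3 lamb libraries it was 55.8-fold lower in lambs. The longer armadillo-type 5p had 46, 31 and 13 reads in fetuses and was 17.7-fold lower against the same floor. As for miR-16b-3p, these folds are no firm bounds. Both names passed the minimum of 10 reads through their fetal reads alone and so had to differ. Their edgeR adjusted p of 0.000909 and 0.00703 adds nothing to these counts. Without fetus 1 this armadillo-type name averaged under 10 reads and was not tested.

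**Figure D2:**
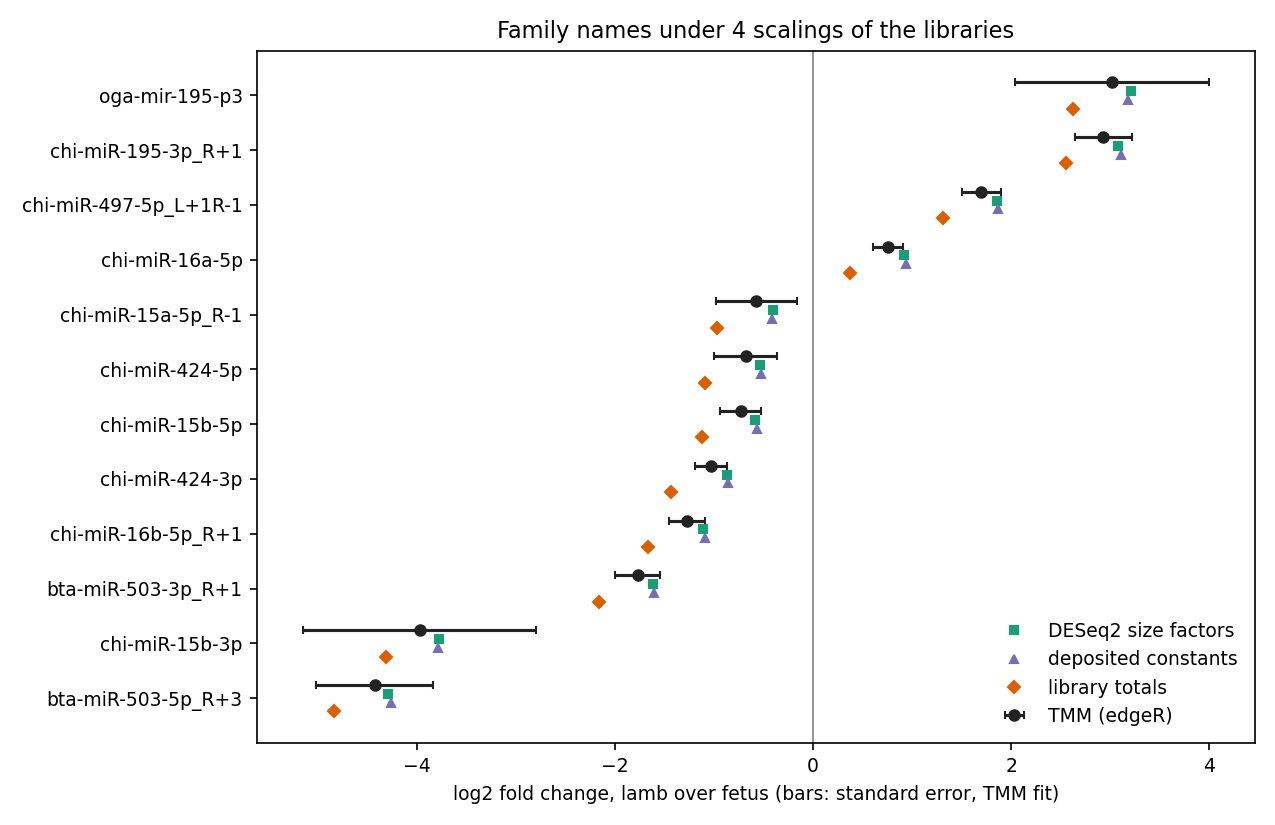
Log2 fold changes, lamb over fetus, of the 12 tested family names with reads in both stages, under 4 scalings; black dots with standard errors are the TMM fit. All 12 keep their direction under every scaling, while library totals place each name lower than the other scalings do.

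MiRNA genes annotated within 10 kb of MIR424 were MIR450 and MIR542, which were looked up after the family's values were known. MiR-450-5p had 549, 401 and 597 RPM in lambs and 1188, 871 and 874 in fetuses (log2 fold change -0.92, SE 0.22, edgeR adjusted p = 0.0147). MiR-542-3p had 59.1, 39.0 and 51.4 in lambs and 192, 121 and 95.2 in fetuses (log2 fold change -1.45, SE 0.32, edgeR adjusted p = 0.0123). Both were thus lower in lambs, like miR-424-3p and miR-503. MiR-450-3p was also lower (log2 fold change -1.39, SE 0.44, edgeR adjusted p = 0.0422), and miR-542-5p gave -0.68 (SE 0.29, edgeR adjusted p = 0.111).

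The use of the arms, which does not depend on scaling between libraries, was compared in the 6 hairpins with both arms listed. For miR-503, 29.5, 16.5 and 10.6% of reads came from the 5p arm in lambs, against 65.6, 61.7 and 61.3% in fetuses. The 5p arm thus held the minority of reads in lambs and the majority in fetuses, a difference of -44.0 percentage points (two-sided exact permutation p = 0.10, the smallest possible, adjusted p = 0.20 over 6 hairpins). In miR-424 the 3p arm dominated at both stages, with 7.04, 5.69 and 9.33% of reads on the 5p arm in lambs and 6.85, 5.46 and 5.69% in fetuses (exact permutation p = 0.20, adjusted p = 0.30). MiR-15b used the 5p arm almost alone, at 99.7% ± 0.55 in lambs and 97.3% ± 0.718 in fetuses (SD, n = 3 each; exact permutation p = 0.10, adjusted p = 0.20). So did miR-16b, with no 3p read in lambs and a 5p share of 99.9% ± 0.0611 in fetuses (SD, n = 3; exact permutation p = 0.10, adjusted p = 0.20). This rests on 17, 5 and 5 fetal reads of miR-16b-3p. With 1399.5 to 2221 reads of miR-16b-5p per lamb library, a 3p share as low as in fetuses could go unseen. The comparison therefore decides nothing. For miR-497 the means were 99.6% ± 0.676 in lambs and 98.7% ± 2.30 in fetuses (SD, n = 3 each; exact permutation p = 1). MiR-195 had 0% in lambs and 1.71% ± 2.96 in fetuses (SD, n = 3 each; exact permutation p = 1). The last 2 comparisons rest on 6 reads of miR-195-5p and, for miR-497-3p, on 5 reads in lamb 2 and 17 in fetus 1.

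**Figure D3:**
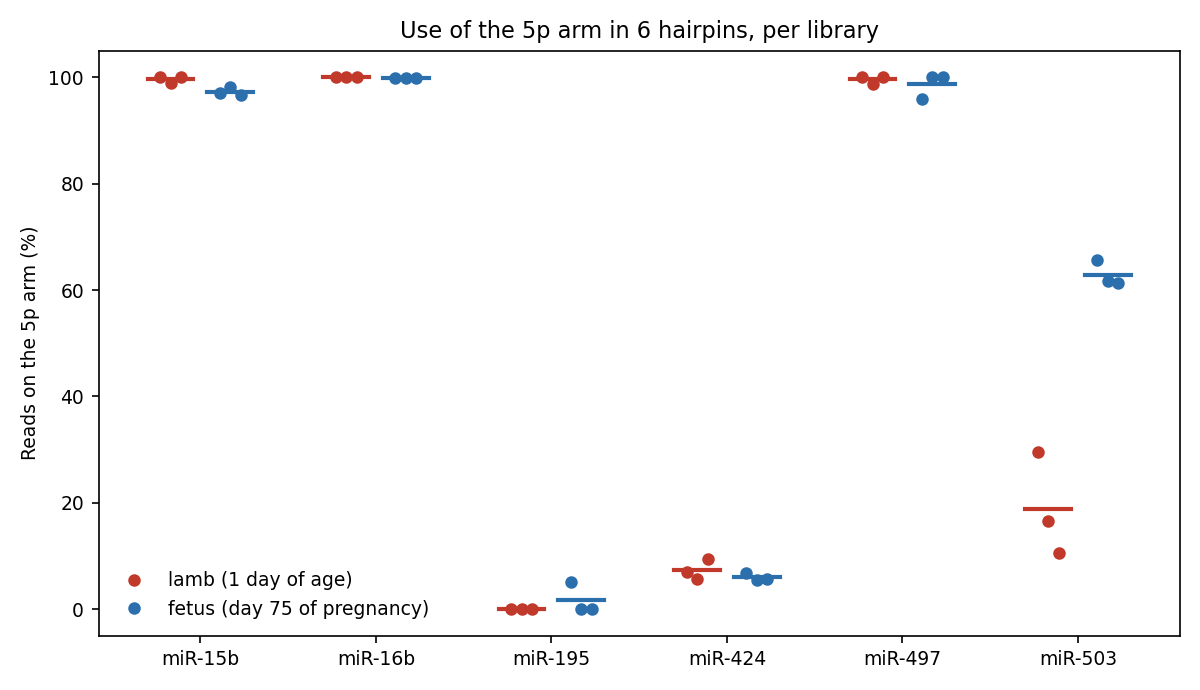
Percent of reads on the 5p arm in the 6 hairpins with both arms listed; dots are libraries and bars are means of 3. Only for miR-503 do the stages lie far apart, at 10.6 to 29.5% in lambs and 61.3 to 65.6% in fetuses.

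Within pairs, the balance of the 2 miRNAs was measured as the log2 ratio of their reads, both arms summed. MiR-424 exceeded miR-503 by 3.26, 3.75 and 3.73 in lambs and by 1.60, 1.70 and 1.76 in fetuses, a difference of 1.89. MiR-195 over miR-497 was -0.77, -0.71 and -1.12 in lambs and -1.86, -2.48 and -2.01 in fetuses, a difference of 1.25, which sets 3p reads of the first against 5p reads of the second. MiR-15a over miR-16a was -7.44, -8.28 and -7.05 in lambs and -6.14, -6.45 and -5.87 in fetuses, a difference of -1.43. It rests on 18 to 125 reads of miR-15a per library and on the uncertain division of reads between miR-16a and miR-16b. None of these 3 ratios overlapped between the stages (two-sided exact permutation p = 0.10 each, adjusted p = 0.133 over 4 pairs). MiR-15b over miR-16b was -1.13, -1.15 and -1.55 in lambs and -2.03, -1.84 and -1.43 in fetuses. This ratio overlapped (exact permutation p = 0.20, adjusted p = 0.20), and it rests on the same uncertain division of reads. As no p below 0.10 is possible with 3 against 3 libraries, no such ratio could pass 0.05.

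**Figure D4:**
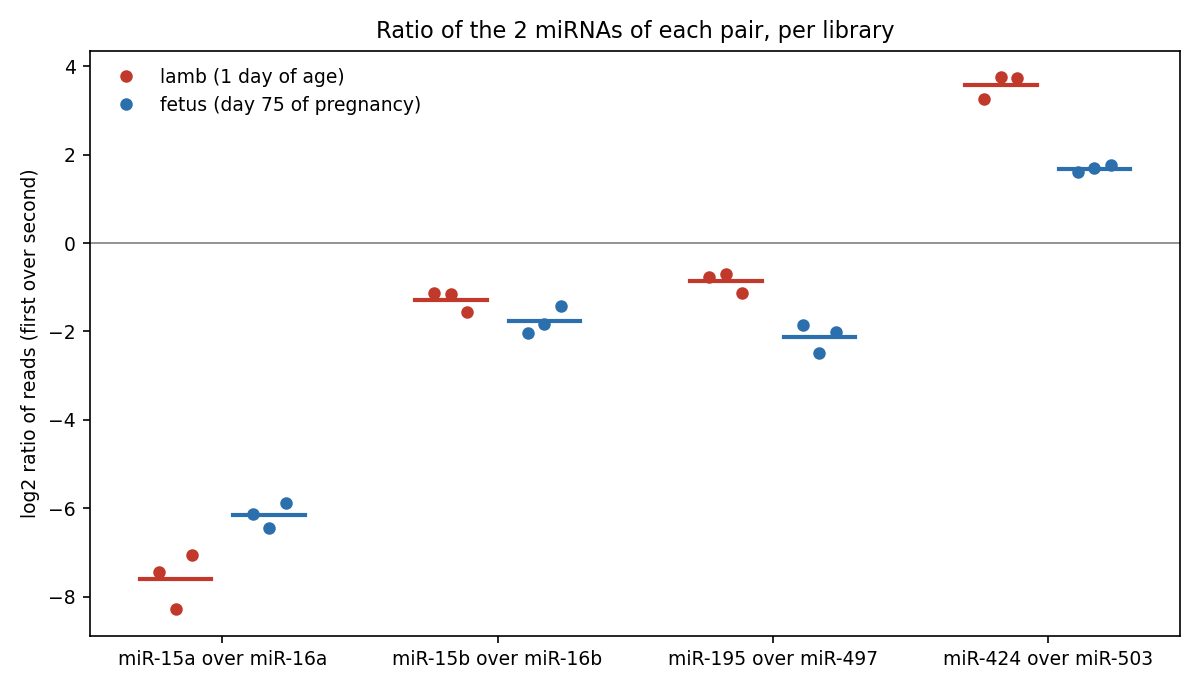
Log2 ratio of the reads of both miRNAs of each pair, first over second, per library; dots are libraries and bars are means of 3. The stages are apart for 3 pairs and overlap for miR-15b over miR-16b.

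Summed over the 19 names, the family had 2063, 1951 and 2247 RPM in lambs and 2833, 3030 and 2781 in fetuses, without overlap. It was a small part of all listed reads, 0.175, 0.181 and 0.190% in lambs and 0.320, 0.355 and 0.315% in fetuses. The names with the AGCAGC seed start summed to 1412, 1454 and 1628 RPM in lambs and 1665, 1874 and 1573 in fetuses, which overlap. As a part of all listed reads, without TMM, these names did not overlap. They held 0.120, 0.135 and 0.138% in lambs and 0.188, 0.219 and 0.178% in fetuses. MiR-16a alone made up 41.89, 50.63 and 49.12% of the family's reads in lambs and 19.96, 20.42 and 20.12% in fetuses. MiR-503 made up 1.7 to 3.0% in lambs and 10.88 to 12.8% in fetuses. MiR-424 held 26.05% ± 2.94 in lambs and 38.1% ± 2.56 in fetuses, and miR-16b 12.64% ± 0.292 in lambs and 21.96% ± 3.003 in fetuses (SD, n = 3 each).

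In lambs the order of the summed levels was miR-16a, miR-424, miR-16b, miR-15b, miR-497, then miR-195 and miR-503, and last miR-15a. The ranges of miR-15b (94.8 to 122 RPM) and miR-497 (75.4 to 95.4) overlapped, as did those of miR-195 (38.4 to 55.9) and miR-503 (33.2 to 61.9). In fetuses the order was miR-424, miR-16b and miR-16a, miR-503, miR-15b, miR-497, miR-15a and miR-195. There miR-16a and miR-16b overlapped, as did miR-15a (7.05 to 9.56) and miR-195 (4.85 to 7.53). These orders compare read levels of strands of similar length. How well each sequence is captured in a small RNA library also differs and was not measured.

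**Figure D5:**
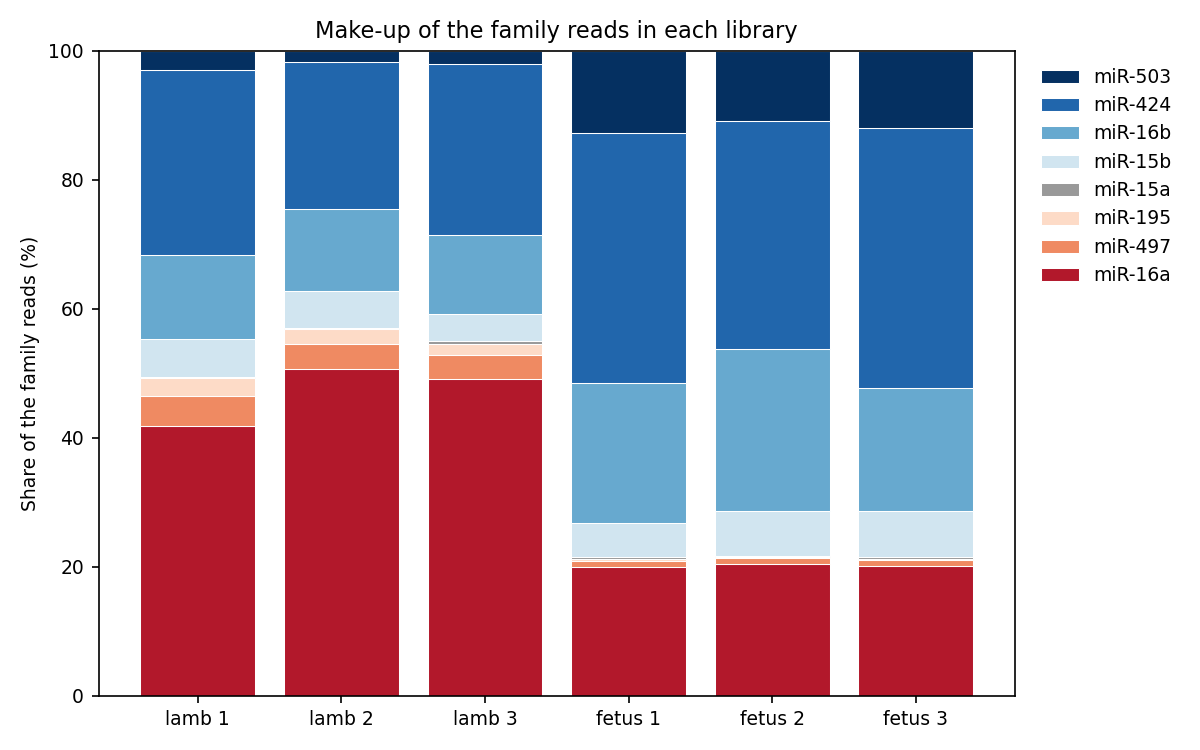
Share of the family's reads from each miRNA, in percent, with one bar per library; miR-16, with 5 reads in all, is left out. MiR-16a fills 41.89 to 50.63% of the bar in lambs and 19.96 to 20.42% in fetuses, while miR-503 and miR-424 take less in lambs.

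Related miRNAs outside the family were read out from lists chosen with earlier results on these data known. Of 9 miRNAs with the same or a shifted seed, miR-103 and miR-107 were listed. In their 3p strands AGCAGC stands at bases 1 to 6. Their 3 tested names, miR-103-3p, miR-107-3p and miR-103-5p, were lower in lambs. MiR-103-3p had 449, 403 and 473 RPM in lambs and 688, 731 and 544 in fetuses (log2 fold change -0.57, SE 0.17, edgeR adjusted p = 0.0355). MiR-103-5p, not one of these 3p strands, had 0.638, 0 and 0.624 RPM in lambs and 2.83, 2.82 and 3.22 in fetuses. It reached the minimum through its fetal reads, so its call adds little. Of all tested names, 26.5% were lower. Of 15 further miRNAs known to act on cell cycle genes, 12 were listed. Of their 19 tested names, 10 were higher in lambs and 9 did not pass, while 16.2% of all names were higher. Their median log2 fold change was 0.89, beside -0.12 for all names. Among the 10, bta-miR-29c had 2.55, 1.59 and 7.36 RPM in lambs and 0.322, 0 and 0 in fetuses. It reached the minimum through its lamb reads, so its call adds little. The 3 names of miR-133a and miR-206 among the 10 are also on the list of muscle miRNAs. Of the others, miR-29a-3p had 302, 386 and 1041 RPM in lambs and 47.9, 44.0 and 38.9 in fetuses (log2 fold change 3.72, SE 0.52, edgeR adjusted p = 0.00206). MiR-26a-5p had 41583, 43643 and 65845 in lambs and 30203, 25466 and 26431 in fetuses (log2 fold change 0.88, SE 0.19, edgeR adjusted p = 0.0121). MiR-221-3p (log2 fold change -0.52, edgeR adjusted p = 0.194) and miR-222-3p (-0.22, edgeR adjusted p = 0.543), which target a cyclin-dependent kinase inhibitor, did not pass.

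The names whose levels followed a family member most closely were sought for the most abundant name of each pair, by Pearson's r of log2 levels over the 6 libraries. As these libraries form 2 stages, names that differ between the stages tend to give a high r, and it carries no test. For miR-424-3p the closest name was miR-503-3p, its own partner (r = 0.999), ahead of miR-103-5p (0.997) and miR-874-3p (0.995). For miR-497-5p they were miR-365-3p (0.997) and the names bta-miR-378_R+1 and chi-miR-378-3p (0.996 each). For miR-16a-5p they were miR-151-5p (0.993), oan-miR-27b-3p_R+2 (0.990) and miR-29a-3p (0.987). For miR-16b-5p they were miR-671-5p (0.993), mml-miR-490-5p (0.991) and oan-miR-135b-2-3p_2ss21CG22AC (0.988). All 3 had fitted log2 fold changes below -7, as did the 2 tested family names without lamb reads, and these are not read as sizes.

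Markers of other cells in the muscle are given beside the share of all tested names called higher (16.2%), lower (26.5%) or either (42.7%) in lambs. All 5 blood miRNAs were listed, with summed levels of 649 to 1146 RPM in lambs and 159 to 320 in fetuses; of 7 tested names 2 were higher and 1 was lower in lambs, a share near that of all names. The higher names were miR-223-3p of myeloid cells and miR-150 of lymphocytes (664, 989 and 512 in lambs, 37.5, 47.2 and 60.3 in fetuses), and the lower one was miR-144-5p. The log2 fold change of miR-451 of red blood cells, with 60.5, 107 and 113 in lambs and 107, 132 and 240 in fetuses, did not pass at -0.77 (edgeR adjusted p = 0.157). The endothelial miR-126, with 2 of 3 tested names higher in lambs, summed to 3519 to 3784 in lambs and 1692 to 2080 in fetuses. The 4 fibroblast and smooth muscle miRNAs were all listed and summed to 19591 to 32494 in lambs and 37682 to 44079 in fetuses, with 3 of 10 tested names higher and 3 lower. This sum joins opposite changes. The higher names were miR-143-3p, miR-145-5p and miR-145-3p. The lower names were miR-214-3p, a cattle-type miR-199a-5p and goat miR-199a-5p (6741, 6306 and 14323 in lambs, 23074, 26738 and 22847 in fetuses). The 3 neural miRNAs summed to 6.71 to 10.8 in lambs and 12.2 to 23.4 in fetuses, with miR-124a at 0 in every lamb library, and their 2 tested names did not pass. The part of these cells in the changes of the family was not tested.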

How the data were processed

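Libraries were made with an Illumina TruSeq small RNA kit and selected for size on a gel, per the labels' protocols. For the aligner, the registry release and the goat build nothing is stated in what was used here. The deposited raw values, named so per the file headers, are treated as estimated counts per listed sequence: 12% are not whole numbers, for a reason not stated. The deposited normalized signal is the raw count times 1 constant per library, with the method not stated; it served as an alternative scaling. The authors' deposited fold change (ratio), log2 fold change (fetus over lamb) and unadjusted p-value were not used. One line of the table was empty and that name was not analysed here. Classes against the registry are the authors' own.

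Counts were rounded, names averaging at least 10 reads were kept, and lamb was compared with fetus by edgeR 4.0.16 (TMM, quasi-likelihood, Benjamini-Hochberg over all names) in R 4.3.3, without a replicate block. Standard errors are the absolute log2 fold change over the square root of F. The fit was tested on simulated data beforehand. DESeq2 1.42.0, library totals, no filter, a block and leaving out each library were alternatives. Shares and ratios used exact permutation tests (scipy 1.17.1). Pseudocounts do not apply to the count test; 1 was added for correlations. All family names are reported. Members and lists were chosen with earlier results of these data known. PCR reads are not independent molecules, so floors cover counting error only.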

Additional observations from a re-analysis of the deposited data

How the results depend on the processing

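Directions of the 14 tested names held under every alternative that tested them. The 280 recomputed values include pair ratios and arm shares, which could never change side of the threshold. Of these 280, 250 kept direction and side of the threshold or stayed within 1.5 times. Of the rest, 23 lost a call and 2 gained one; those not given with their gene were, for miR-15b-5p, -0.54 with names of one miRNA and arm summed (edgeR adjusted p = 0.0816). Family names higher in lambs numbered 4, and 2 with library totals; those lower numbered 8, and 5 with the replicate block. Leaving out 1 library gave 9 to 11 differing family names, and 221 to 342 of all names. The replicate numbers showed no clear pairing: deviations of same-numbered libraries correlated at 0.153, 0.365 and -0.376, and lamb 2 correlated better with fetus 3. With 3 libraries per stage, these correlations cannot tell whether the libraries are paired. With the block, 222 of all names and 8 of the family passed, against 305 and 12; miR-15b-5p, miR-15b-3p, the galago-type miR-195-3p and the armadillo-type miR-503-5p did not (edgeR adjusted p from 0.0676 to 0.0905). With pairs, a sign-flip test of ratios and arm shares cannot go below 0.25. The difference in 5p share, lamb minus fetus, of miR-195 was -1.71 points and 0 without fetus 1, from -2.56 to 0 over single libraries left out. For miR-497 it was 0.94, and -0.39 without fetus 1, from -0.39 to 1.60, because fetus 1 holds the only fetal reads of the minor arm. Goat-prefixed names alone numbered 11 of 19; with them, miR-503 had no name and its ratio and arm share no value. DESeq2 called 12 family names and 339 of all names. Alternatives on library totals, the deposited constants and the sum of 16a and 16b were chosen after seeing the data. Pseudocounts of 0.5 and 10 and median centring were not run, since counts were tested. Depth limits the names with few reads: 0 in the lamb libraries was set to 0.139 RPM, which does not allow for low counts listed as 0.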
